A study of Cynodon dactylon with 10 samples.

Results

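Heat was compared with the unstressed state in leaves of wild-type bermudagrass (Cynodon dactylon), a warm-season turf and forage grass. Seedlings were grown to 3 weeks of age and then either kept at 42 °C for 7 days or left as controls for the same 7 days. The comparison is between 2 libraries from heated leaves and 2 from control leaves, out of 10 libraries in all. The other 6 libraries, 2 each, come from seedlings from which water was withheld (drought), seedlings given 400 mM NaCl (salt) and seedlings placed under water (submergence). Levels are in RPKM, read density per contig length and library size, for contigs of a transcript assembly. The contigs compared were those with at least 1 RPKM in 2 or more of the 10 libraries, which were 26884 of 28456. The 1572 contigs left out were low in both groups, with a highest mean of 2.57 RPKM under heat and 1.145 RPKM in the control.

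A leaf held far above its usual temperature is known to turn on heat shock factors, which raise chaperones that hold and refold damaged proteins. Photosynthesis is a known weak point, because rubisco activase and the water-splitting photosystem lose function in the heat, and the abundant messages of the light-harvesting and carbon-fixing proteins often decline. The contigs here carry assembly identifiers and no gene names, so none of them was tied to these classes, and the leaf label was not checked against marker genes. An identifier gives a component, a subcomponent and a sequence number. Contigs of 1 subcomponent share sequence in the assembly and can be splice forms, alleles or close gene copies of this polyploid grass.

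The heat libraries had 759928 and 761476 RPKM in total and the control libraries 778592 and 778862. Read totals are unknown, but low RPKM values come in steps of 1 read, and these steps place the heat libraries at 0.923 and 0.79 times the depth of control replicate 1 and control replicate 2 at 0.919 times. Among 19380 contigs that averaged 5 RPKM or more over the 4 libraries, 12 differed at least 2-fold between the heat libraries and 22 between the control libraries. Of the same 19380 contigs, 5871 (30.3%) differed at least 2-fold between heat and control. Nothing in the labels ties the 2 libraries of a group to different plants; the spread that the p-values rest on is that between libraries and may be technical.

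Heat changed 28.0% of the contigs tested by at least 2-fold, and after scaling more of these fell than rose. Some tested contigs were absent from both groups and passed the filter through the other stresses. A total of 3267 contigs rose and 4259 fell at least 2-fold, which are 12.2% and 15.8% of the contigs tested. The contigs that rose had a median level of 5.09 RPKM in the control and 21.95 RPKM under heat. The contigs that fell stood at a median of 16.4 RPKM in the control and 4.22 RPKM under heat. The median over all tested contigs was 8.93 RPKM in the control and 10.5 RPKM under heat, and because the sets were chosen on these libraries, their control levels are partly fixed by the choice. The RNA is from leaf tissue of many cell types, so fewer cells of a type and less RNA per cell cannot be told apart. Calls were made with limma on log2(RPKM + 1) after scaling the libraries, at a Benjamini-Hochberg adjusted p under 0.05, and a fold change is on that scale, which understates the change of low contigs. Without the size limit 19332 contigs, 71.9% of those tested, were called, 9523 higher (35.4%) and 9809 lower (36.5%). Without scaling of the libraries the balance turned, with 4461 contigs higher and 3384 lower at 2-fold and 11991 higher and 7805 lower in all, and the median change over all tested contigs was 0.14 in place of 0.00 on the log2 scale.

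Most of the called changes were small. Of the 19332 called contigs, 11806 (61.1%) changed by less than 2-fold, and the median size of a called change was 0.81 on the log2 scale. A change of at least 4-fold was called for 860 contigs that rose and 1455 that fell. At 8-fold the counts were 289 (1.07% of those tested) and 479 (1.78%), at 16-fold 106 and 182, at 32-fold 39 and 76, and at 64-fold 13 and 24. Falls outnumbered rises at each of these sizes after scaling, while at 8-fold the unscaled values gave 358 rises and 386 falls. Both heat libraries lay above both control libraries for 11187 contigs (41.6%) and below both for 11375 (42.3%), and the groups overlapped for the other 4322. For 7443 contigs (27.7%) the 95% interval of the change stayed within 0.5 of no change on the log2 scale. These include contigs at or near 0 RPKM in both groups, which passed the filter through other libraries. The pseudocount keeps the intervals of such contigs narrow, so the count is not one of steadily expressed contigs. The contigs nearest the 2-fold limit had changes of 1.00017 and 0.999603 among rises and -1.00001 and -0.999785 among falls.

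**Figure D1:**
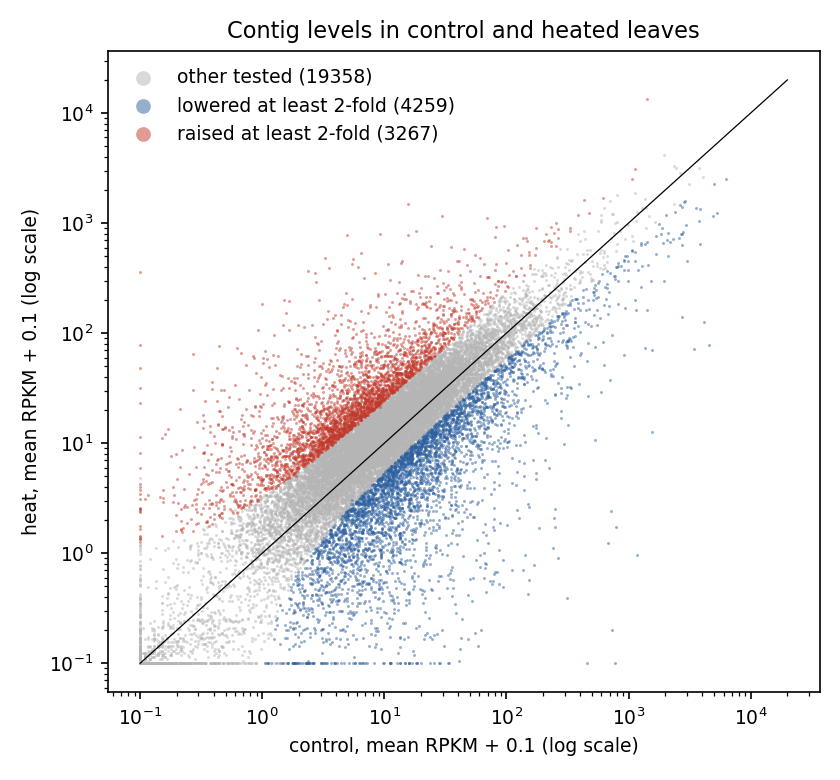
Mean RPKM of each tested contig in the 2 control libraries (horizontal, log scale) and the 2 heat libraries (vertical, log scale), each with 0.1 added so that contigs listed at 0 can be drawn. Points are unscaled means; red contigs (3267) rose and blue contigs (4259) fell at least 2-fold in the scaled fit, and the line marks equal levels. The most abundant contig under heat stands alone at the top, at a mean of 13452 RPKM.

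Among contigs with the highest mean level over the 10 libraries, falls outnumbered rises by a wide margin. These means include the control and heat libraries, so the balance depends in part on how abundance is defined. Of the 100 most abundant contigs by the heat mean, a choice that favours rises, 33 rose and 28 fell at least 2-fold. Of the 141 contigs that averaged 500 RPKM or more over all libraries, 54.6% fell and 10.6% rose at least 2-fold, and the median change was -1.14 on the log2 scale. Of the 2677 contigs at 50 to 500 RPKM, 23.8% fell and 14.1% rose. The 17337 contigs at 5 to 50 RPKM were more evenly split, with 2639 that fell (15.2%) and 2282 that rose (13.2%), and the 6729 contigs under 5 RPKM had 907 that fell (13.5%) and 592 that rose (8.80%). Without scaling, falls still outnumbered rises in the top class (63 and 20) and in the class at 50 to 500 RPKM (485 and 458), whereas rises outnumbered falls at 5 to 50 RPKM (3178 and 2096) and under 5 RPKM (805 and 740). A list of 100 abundant contigs was also taken from the mean of the drought, salt and submergence libraries, which are neither control nor heat libraries. Such a list can leave out contigs abundant only under heat, and the salt libraries were close to the control. Falls may therefore be favoured by this choice as well. On that list 52 contigs fell and 12 rose at least 2-fold under heat, with a median log2 change of -1.10, beside 15.8% and 12.2% of all contigs tested. The unscaled values gave 43 falls and 16 rises. These 100 contigs held 22.0% and 22.4% of the RPKM in the control libraries and 15.2% in each heat library. Their share was 15.5% and 14.9% in the drought libraries, 13.7% and 13.4% in the submergence libraries and 21.4% and 21.3% in the salt libraries.

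**Figure D2:**
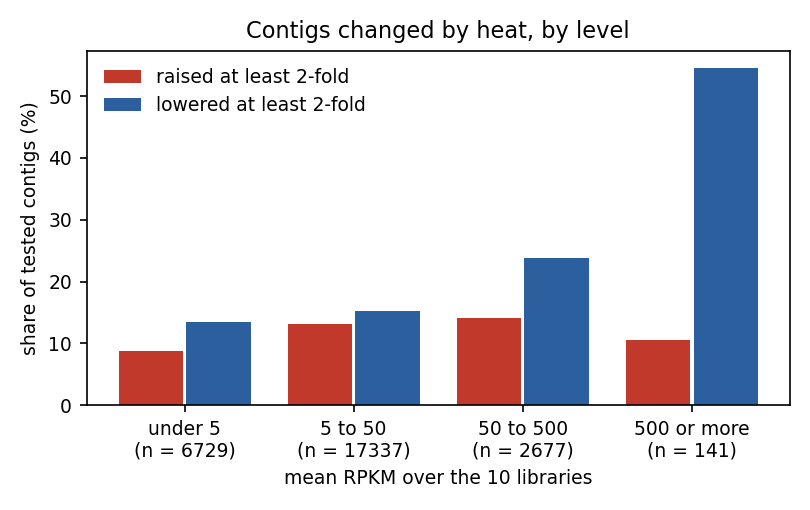
Share of tested contigs (vertical, percent) that rose (red) or fell (blue) at least 2-fold under heat, by the contig's mean RPKM over the 10 libraries (horizontal, with the number of contigs in each class). The blue bar reaches 54.6% in the class of 500 RPKM or more, against 13.5% to 23.8% in the other classes.

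The make-up of the transcript pool changed with these falls. The contigs needed to reach 50% of the summed RPKM numbered 896 ± 17.0 in the control, and under heat the number was 1552.5 ± 3.54 (SD, n = 2 each). At the same time 80.5 ± 2.12 contigs stood at 1000 RPKM or more in the control and 49 ± 1.41 under heat (SD, n = 2 each). Both differences are far larger than the spread between replicates; no test was run on these library values, for which the smallest two-sided p of an exact permutation test of 2 against 2 would be 0.333. Other stresses moved the same way: 50% of the RPKM took 1402.5 ± 41.7 contigs in droughted and 1950 ± 8.49 in submerged leaves, and 50 ± 2.83 and 40 ± 1.41 contigs stood at 1000 RPKM or more (SD, n = 2 each). Submergence thus went further than heat, while salt stayed near the control with 1037.5 ± 20.5 and 79 ± 0 contigs (SD, n = 2). Of the 100 most abundant contigs by the control mean, which reach down to 802 RPKM, and the 100 most abundant by the heat mean, which reach down to 665 RPKM, 55 were the same, 55% of each list. Each list is set by the level in its own group, so its direction of change is partly fixed by that choice: 73 contigs of the control list fell and 3 rose at least 2-fold, while 33 of the heat list rose and 28 fell.

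The contigs that rose at least 2-fold took up 5.24% ± 0.0186 of the summed RPKM in the control and 25.2% ± 0.0136 under heat, and those that fell held 42.6% ± 0.144 in the control and 13.6% ± 0.0636 under heat (SD, n = 2 each). Both sets were chosen on these very libraries, so the values describe the size of the exchange and test nothing. The libraries of the other stresses, which entered these calls only through the filter, the scaling and the spread, stood between. The set that rose with heat took up 13.9% ± 0.0402 under drought, 14.0% ± 0.105 under submergence and 6.43% ± 0.0237 under salt (SD, n = 2 each). The set that fell took up 24.9% ± 0.249 under drought, 20.4% ± 0.0756 under submergence and 39.3% ± 0.150 under salt (SD, n = 2 each). In the salt libraries both shares lay nearest to the control.

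**Figure D3:**
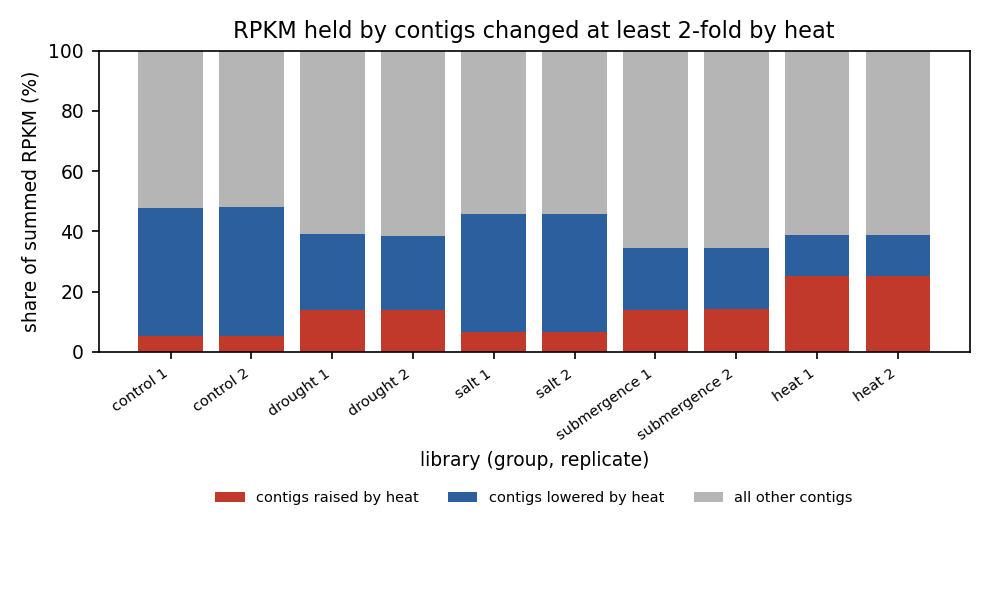
Share of summed RPKM (vertical, percent) in each of the 10 libraries (horizontal) held by contigs that rose at least 2-fold under heat (red), fell at least 2-fold (blue) or did neither (grey). The red share is 5.24% on average in the control and 25.2% under heat, and the replicates of a group are nearly alike.

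A single contig became the most abundant transcript of heated leaves. It stood at 1429 and 1384 RPKM in the control libraries and at 13352 and 13553 RPKM in the heat libraries, where it alone made up 1.76% and 1.78% of all RPKM. Its rank by mean level went from 54 in the control to 1 under heat. Its log2 change was 3.02 (SE 0.04, limma adjusted p = 4.02e-10). Its level was 1435 and 1374 RPKM under drought, 2350 and 2325 under salt and 3504 and 3445 under submergence, so the heat libraries lay far above all 8 others. The next contig by heat level had 4158 and 4104 RPKM under heat and 1952 and 1984 in the control.

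The 5 contigs of the subcomponent that holds this most abundant contig did not move alike. This subcomponent was singled out after its values were seen, because it gained more summed RPKM under heat than any other subcomponent of at least 5 tested contigs. Summed over the 5 contigs it had 2777 and 2708 RPKM in the control and 15717 and 16062 under heat. A member listed at 0 in both control, both drought and both submergence libraries, and at 0 and 0.69 RPKM under salt, stood at 342 and 383 RPKM under heat. Another went from 249 and 212 RPKM in the control to 587 and 657 under heat, a log2 change of 1.19 (SE 0.16, limma adjusted p = 0.000187). The last pair moved by less than 2-fold, with log2 changes of 0.25 and 0.11. Reads may be split between contigs of 1 subcomponent, so the level of a single member is less certain than the sum.

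The largest loss of summed RPKM was also in 1 subcomponent, again singled out after its values were seen. Its 10 contigs together held 25271 and 26120 RPKM in the control, or 3.25% and 3.35% of the library, and 3930 and 4057 RPKM under heat, or 0.517% and 0.533%. All 10 contigs fell at least 2-fold, with log2 changes from -1.12 to -9.74. The most abundant of them, at rank 5 in the control, went from 4407 and 4633 RPKM to 74.6 and 80.5. Another went from 758 and 797 RPKM to 0 in both heat libraries. Yet another kept 1537 and 1605 RPKM under heat from 2862 and 2924 in the control, so the members kept very unequal fractions of their control level. The sum was low in 2 other stresses as well, at 2194 and 2123 RPKM under drought and 2508 and 2619 under submergence, whereas salt had 21505 and 20916 RPKM.

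Because the identifiers say nothing of a gene's role, only 2 contigs that rose and 2 that fell are named, picked by rule. The largest rise among contigs of at least 1 RPKM in the control and at least 50 under heat was that of comp51860_c0_seq2. Its level was 4.81 and 4.86 RPKM in the control and 802 and 767 RPKM under heat. It stood at 163 and 160 RPKM under drought, 93.2 and 89.8 under submergence and 5.57 and 6.34 under salt. Heat was thus highest, drought and submergence lay between, and salt was close to the control. The log2 change under heat was 6.86 (SE 0.05, limma adjusted p = 2.02e-11), and heat also exceeded drought by 2.11 on the log2 scale (SE 0.05, limma adjusted p = 1.29e-08). The other contig of its subcomponent went from 13.5 and 14.0 RPKM in the control to 469 and 445 under heat, a log2 change of 4.73 (SE 0.04).

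The largest fall among contigs of at least 50 RPKM in the control and at least 1 under heat was that of comp50074_c0_seq1. It had 695 and 659 RPKM in the control and 1.10 and 1.18 under heat. Between these lay drought, with 243 and 250 RPKM, and submergence, with 88.2 and 87.2 RPKM, while salt had 613 and 658 RPKM, just under the control. The log2 change under heat was -8.50 (SE 0.04, limma adjusted p = 3.7e-12), and heat lay below submergence, the next lowest group, by a log2 difference of -5.30 (SE 0.04, limma adjusted p = 3.37e-11). Its partner in the subcomponent went with it, from 789 and 779 RPKM in the control to 1.88 and 1.38 under heat.

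**Figure D4:**
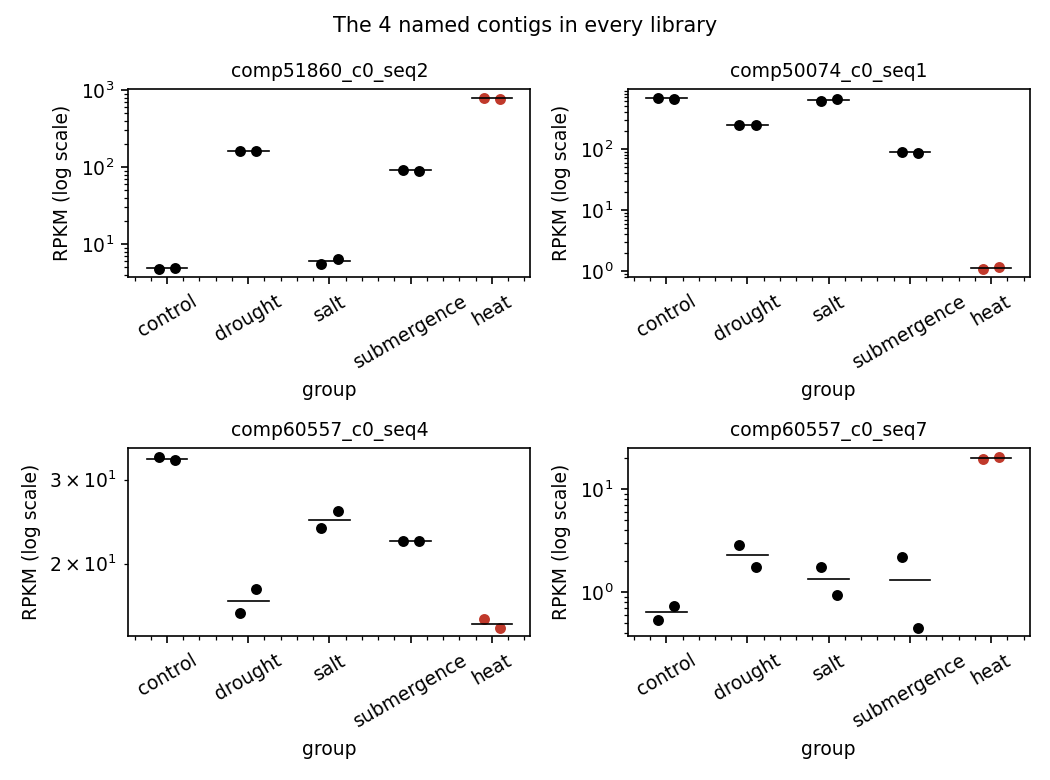
Level in RPKM (vertical, log scale) of the 4 named contigs in each of the 10 libraries, by group (horizontal); each point is a library, heat in red, and each bar is the mean of 2. comp51860_c0_seq2 and comp60557_c0_seq7 are highest under heat, and comp50074_c0_seq1 and comp60557_c0_seq4 are lowest there.

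A small number of contigs were listed at 0 in 1 of the 2 states. In both control libraries 23 contigs were listed at 0 that had at least 1 RPKM in both heat libraries, and 82 were listed at 0 in both heat libraries with at least 1 RPKM in both controls. Of all 26884 tested contigs, 1564 and 1620 were at 0 in the heat libraries and 1185 and 1286 in the controls. Heat replicate 2 also had the lowest relative depth, 0.79, and the part of depth in these counts was not tested. At a level of 10 RPKM in place of 1 the counts were 5 and 25. Of the 25 lost contigs 21 had another tested contig in their subcomponent, beside 13528 of all 26884 tested contigs. None of the 25 was at 0 in all 6 libraries of the other stresses. Their median level was 16.8 RPKM in the control, 13.9 under salt, 3.18 under drought and 2.25 under submergence. Of the 5 gained contigs 3 had another tested contig in the subcomponent, too few to set against all tested contigs. A gained contig with a subcomponent to itself had 50.3 and 46.1 RPKM under heat, 2.24 in each drought library and 8.94 and 8.75 under submergence. With a looser limit of at most 1 RPKM in both libraries of 1 group, 13 contigs reached 50 RPKM in both heat libraries and 34 contigs went the other way. An entry of 0 may also be a failed read assignment where related contigs compete, and that was not tested.

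Contigs of 1 subcomponent often changed by unequal amounts. In 4876 subcomponents the 2 contigs of highest mean level across the 10 libraries were set against each other, and the log2 ratio between them was fitted with limma over the 10 libraries. The ratio shifted at least 2-fold under heat in 738 pairs (15.1%) at an adjusted p under 0.05, and in 1888 (38.7%) without a limit on size. The more abundant contig gained against the other in 401 of the 738 and lost in 337. In 460 of the 738, 1 contig changed at least 2-fold and the other did not, in 41 both rose, in 64 both fell and in 37 they went in opposite directions. The remaining 136 had neither contig past 2-fold. The counts hardly depended on scaling, since a factor common to a library largely cancels in a ratio: 741 pairs shifted without it.

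Opposite changes within a pair were rare beside shared ones. Of the 4876 pairs, both contigs rose at least 2-fold in 376 and both fell in 541, while 37 pairs had 1 of each. Contigs of a pair share sequence, and the part of read assignment in these counts was not tested. In 714 of the 4876 pairs the order of the 2 contigs was reversed between the groups. That is, 1 was higher in both control libraries and the other higher in both heat libraries. No size limit or test was applied to the reversal, so pairs of nearly equal level can be among them. Of the 714, 355 were among the 738. Fitted against the same controls, drought shifted the ratio at least 2-fold in 371 pairs, submergence in 613 and salt in 30. Heat differed from drought by such a shift in 575 pairs, from submergence in 813 and from salt in 699. The median size of the shift was 0.33 on the log2 scale in heated leaves, 0.28 in submerged, 0.23 in droughted and 0.14 in salt-treated ones.

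**Figure D5:**
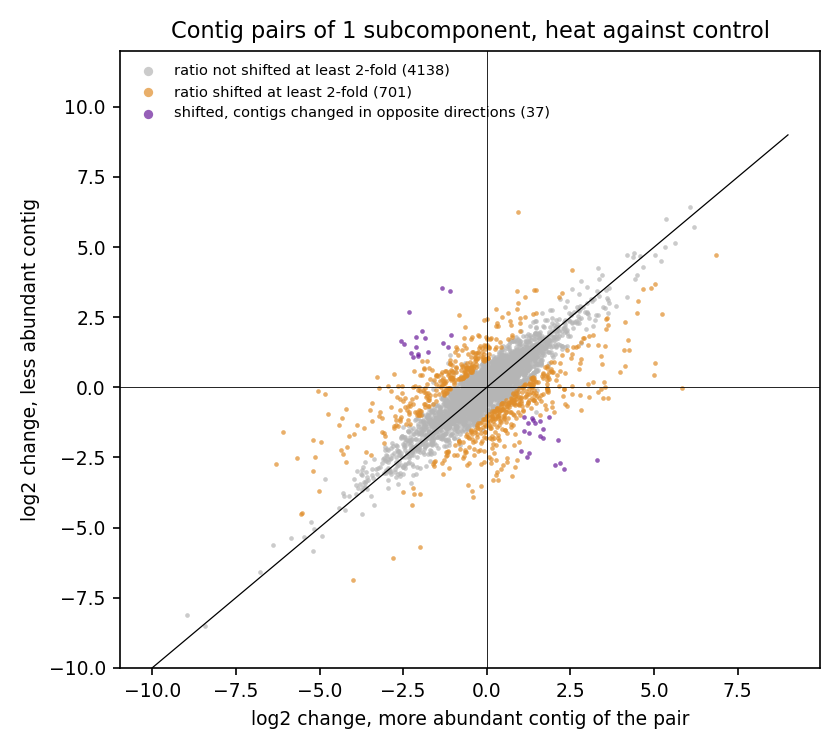
Log2 change under heat of the more abundant contig (horizontal) and of the less abundant contig (vertical) in 4876 pairs of 1 subcomponent. Grey pairs kept their ratio within 2-fold or missed the test, orange pairs shifted at least 2-fold, and the 37 purple pairs also changed in opposite directions; the diagonal marks equal change.

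The pair with the largest shift among 9 pairs that went in opposite directions, with each contig at 20 RPKM or more in 1 of the groups, was that of comp60557_c0. Its contig comp60557_c0_seq4 had 33.5 and 32.9 RPKM in the control and 15.3 and 14.7 under heat. Its contig comp60557_c0_seq7 had 0.54 and 0.73 RPKM in the control and 19.9 and 20.7 under heat. The first contig was thus the major form in the control and the second the larger under heat. The ratio of the first to the second shifted by -4.88 on the log2 scale (SE 0.38, limma adjusted p = 3.23e-05). The size depends on the pseudocount, with a shift of -5.96 at 0.1 RPKM and -3.20 at 5 RPKM. The single log2 changes were -1.33 (SE 0.06, limma adjusted p = 1.79e-07) and 3.55 (SE 0.34, limma adjusted p = 2.22e-05), of which the second was 4.58 at a pseudocount of 0.1 RPKM and 2.06 at 5 RPKM. In the other stresses comp60557_c0_seq7 stayed between 0.45 and 2.84 RPKM, below comp60557_c0_seq4 in every library, whose levels there ran from 15.8 to 25.7 RPKM.

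Larger subcomponents moved as a block in some cases and split in others. Of 448 subcomponents with at least 5 tested contigs, 25 had every contig lowered at least 2-fold, 10 had every contig raised, and 64 held both raised and lowered contigs. Without scaling these counts were 18, 13 and 66. Of 13356 contigs that were alone in their subcomponent 26.1% changed at least 2-fold, and of the 13528 with company 29.9% did, beside 28.0% over all tested.

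A group of 3 such subcomponents, picked after their values were seen, shows the range. A subcomponent of 5 contigs, which had the highest heat level among those raised throughout, went from 38.2 and 40.1 RPKM in sum in the control to 971 and 984 under heat. Its sum was 346 and 328 RPKM under drought, 330 and 341 under submergence and 84.8 and 81.0 under salt, so all stresses exceeded the control and heat was highest. A subcomponent of 14 contigs, the one with the most contigs among those lowered throughout other than the largest loss, fell from 808 and 861 RPKM to 7.60 and 9.37. Its sum was 104 and 96.4 RPKM under drought, 569 and 555 under salt and 1867 and 1955 under submergence, the highest of all groups. The subcomponent with the widest spread of changes had 13 contigs, of which 5 rose and 6 fell at least 2-fold, with log2 changes from -5.95 to 5.95. Its most lowered contig went from 73.9 and 79.1 RPKM in the control to 0.68 and 0.16 under heat. Its most raised contig went from 0.35 and 2.60 to 156 and 150 RPKM. In sum this subcomponent rose from 471 and 481 RPKM in the control to 1704 and 1686 under heat, with 1659 and 1671 under submergence.

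Heat stood at the edge of the 10 libraries for many contigs. On scaled values both heat libraries were above all 8 others for 5406 contigs (20.1%) and below all 8 for 5090 (18.9%). The corresponding counts were 7188 and 5283 for submergence, 3466 and 2866 for drought, 2759 and 2705 for the control and 1350 and 1186 for salt. Without scaling the heat counts were 6153 and 4160. Of the 3267 contigs that rose against the control, 2231 (68.3%) had their 2 highest libraries under heat, and of the 4259 that fell, 2479 (58.2%) had their 2 lowest there. These shares rest partly on the heat libraries that chose the contigs.

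The contigs changed by heat were then followed through the other stresses. All comparisons with the control share the 2 control libraries, so the values are given side by side. The contigs that rose at least 2-fold had a median log2 change of 1.49 in heated leaves, 0.71 in droughted, 0.68 in submerged and 0.17 in salt-treated leaves, beside 0.00, 0.00, 0.10 and 0.00 over all contigs tested. The contigs that fell had medians of -1.62, -0.68, -1.09 and -0.13 in the same order. The 289 contigs raised at least 8-fold had medians of 3.64, 2.64, 1.51 and 0.55 in the order heat, drought, submergence and salt. For the 479 lowered at least 8-fold the medians in that order were -3.73, -1.43, -2.43 and -0.18. Drought thus lay nearer to heat than submergence did for the strongest rises, and submergence nearer than drought for the strongest falls, with no test of that difference.

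The levels of these extreme contigs show the same order. For the 289 the median level was 2.85 RPKM in control leaves and 65.1 in heated ones, with 27.6 in droughted, 12.1 in submerged and 5.05 in salt-treated leaves. For the 479 it was 33.0 RPKM in control leaves and 1.11 in heated ones, with 12.2 in droughted, 6.77 in submerged and 30.2 in salt-treated leaves. The raised set went from a 0.408% ± 0.00630 share of RPKM in the control to 6.99% ± 0.00817 under heat, and the lowered set from 7.59% ± 0.0368 to 0.384% ± 0.00154 (SD, n = 2 each).

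Direct comparisons of heat with each stress used the heat libraries again but no control library. Both sets were chosen on these heat libraries, so their distance from the shares over all tested contigs is partly fixed by the choice. Salt lay near the control, so the comparison with salt comes close to repeating that choice. Of the 3267 contigs that rose, 1282 (39.2%) were at least 2-fold higher under heat than under drought and 78 were at least 2-fold lower, where 8.07% of all tested contigs were higher and 11.8% lower. Against submergence 1446 of them (44.3%) were higher under heat and 155 lower, with 13.8% and 18.4% of all tested. Against salt 2596 (79.5%) were higher, with 11.2% of all tested. Of the 4259 contigs that fell, 2237 (52.5%) were lower under heat than under drought and 42 higher, 1643 (38.6%) were lower than under submergence and 399 higher, and 3552 (83.4%) were lower than under salt, where 15.4% of all tested contigs were. For 399 contigs (9.37% of those that fell), then, the level under submergence was at least 2-fold lower still than under heat. That share was below the 13.8% of all tested contigs, which a choice of contigs low under heat favours.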

How the data were processed

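Leaf RNA was sequenced in 10 libraries. The deposited values are RPKM per contig and library, per the file headers, with 2 decimals. DESeq 1.18.0, HTSeq 0.6.1, TopHat2 2.0.12 and Bowtie2 2.2.3 are listed, per the submitters' processing notes, with no role given. The assembly is not given in the sources used here.

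For scaling, a trimmed mean of the log ratios to a reference library was used, without the outer 30% of ratios and 5% of levels on either side. Contigs that reached 1 RPKM in 2 or more libraries were fitted as log2(RPKM + 1) with limma 3.58.1 in R 4.3.3, using a variance trend, the group as the only term and all 10 libraries (5 residual degrees of freedom). P-values were adjusted by Benjamini-Hochberg, with a threshold of 0.05. Pair ratios were fitted likewise. Relative depth came from the peak of ratios between values of 0.2 to 1.2 RPKM. Named contigs were the largest rise, the largest fall and the pair with the largest opposite shift. Figures used matplotlib 3.10.9. Members and rules were chosen with earlier results of these data known. No sequences were analysed here. Alternatives covered scaling, pseudocount, filter, libraries, replicate block, variance trend, test and unit.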

Additional observations from a re-analysis of the deposited data

How the results depend on the processing

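The counts of contigs called, changed at least 2-fold and changed at least 8-fold, each in both directions, and the count of shifted pairs were recomputed under 18 alternatives. Of 114 such values, 102 lay within 1.5 times the reported count. The unscaled counts at 2-fold lay within that limit, yet they reversed the balance of rises and falls. They were 4461 higher and 3384 lower, against 3267 and 4259 as reported. With a pseudocount of 0.1 RPKM, 496 contigs rose and 1002 fell at least 8-fold. With a pseudocount of 5 RPKM, 1908 rose and 2555 fell at least 2-fold, 129 rose and 155 fell at least 8-fold, and 469 pairs shifted; a larger pseudocount shrinks the fold of low contigs by construction. A limma test against a 2-fold change (treat) called 2135 contigs higher. With RPKM summed per subcomponent there were fewer features, 18244; of these 6279 were called higher, 1947 rose at least 2-fold, and 165 rose and 315 fell at least 8-fold.

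Leaving out 1 control or heat library at a time gave 8709 to 8840 contigs called higher and 9079 to 9139 lower, 3283 to 3313 raised and 4221 to 4283 lowered at least 2-fold, 287 to 293 raised and 472 to 485 lowered at least 8-fold, and 726 to 749 shifted pairs. The lone library is then assumed to vary like the other groups. With a replicate block 3265 contigs rose and 4261 fell at least 2-fold, of which 7522 were among those reported, and 740 pairs shifted. The labels do not say that a replicate number marks a shared plant or day; the correlation of replicate differences was -0.00873 between control and heat and ran from -0.0422 to 0.196 over the 10 pairs of groups. The 4 named contigs and the named pair kept their direction and call in all 75 values computed, though the sizes for low contigs moved with the pseudocount. The named contigs and pair were picked for large changes in these same data, so a kept direction and call was favoured by the choice. Absolute depth is unknown, so no counting interval is given for low contigs.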
